A study of Homo sapiens with 24 samples.

Results

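The 10 genes described here are the core of the TGF-beta pathway as it was read in Panc-1 cells: the ligands TGFB1 and TGFB2, the receptors TGFBR1 and TGFBR2, the signal carriers SMAD2, SMAD3 and SMAD4, the inhibitors SMAD7 and SKIL, and the target TGFBI. They were chosen by name, with earlier results of these data known, and all 10 were listed in each of the 3 deposited tables, which together list 14411 genes. Each passed the filter on low counts in every comparison, and the lowest count of any of them in any library was 122 reads, for SMAD7.

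TGF-beta ligands are secreted in a latent form, and once released they bind TGFBR2, which then recruits and phosphorylates TGFBR1. The active receptor phosphorylates SMAD2 and SMAD3, which join SMAD4 and enter the nucleus to switch target genes on or off. Among the targets are SMAD7, which blocks the receptor, and SKIL, which represses SMAD complexes on chromatin, so that the pathway limits itself. In the pancreas the pathway is known for its part in fibrosis, for growth arrest of epithelial cells and for the frequent loss of SMAD4 in ductal carcinoma.

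Panc-1 is an established human pancreatic ductal carcinoma line. The study placed into it a Tet-One plasmid that was empty, or that held a rat MIST1 or a mouse PTF1a coding sequence under a promoter switched on by doxycycline (Dox), and selected individual stable clones in puromycin. MIST1 and PTF1a are bHLH transcription factors of pancreatic acinar cells, and the Tet-One line shows what Dox does without either factor. Each line gave 4 Control libraries, from cells without Dox, and 4 Dox libraries, from cells kept for 72 h in Dox at 1 µg/ml, which made 6 groups and 24 libraries. The passage number was 32 for Tet-One and Tet-PTF1a and 33 for Tet-MIST1. Because each line is a selected clone, the plasmid, the clone and, for Tet-MIST1, the passage cannot be told apart in any comparison between lines.

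Between 17210989 and 43018494 reads were counted per library on the listed genes, with both extremes in Tet-PTF1a. Tet-One Dox replicate 1 stood apart: its genes differed from the other libraries of its group with an SD of 0.572 on the log2 scale, against 0.0694 to 0.225 for the other 23 libraries. The biological coefficient of variation, which edgeR fits in common over all genes and which leaves out sampling noise, differed between lines. It was 2.80% in Tet-PTF1a, 6.58% in Tet-MIST1 and 14.4% in Tet-One, so that small changes could be called more readily in Tet-PTF1a. All 6 ductal epithelial markers looked for were listed in every table, whereas PECAM1, CDH5 and VWF of endothelium were listed in none. Of the leukocyte markers only CD14 was listed, in every table at 0.283 to 1.40 CPM, and of the fibroblast markers only COL3A1, in Tet-PTF1a. The human PTF1A gene had 0 to 2 counts in Tet-PTF1a Control libraries and 53 to 168 in Dox libraries, and reads of the mouse sequence that align to it cannot be told apart from its own. BHLHA15, the human MIST1 gene, was not listed in the Tet-MIST1 table, so the induction of the rat sequence was not checked here.

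The promoters of 3 genes are shown because TGFB2 had the largest response to Dox among the 10 genes, and TGFBR2 and TGFBI were the pair called in both induced lines. Each sequence is the 250 bases just before the gene start in the deposited coordinates, read 5′ to 3′ on the plus strand of hg19, at chr1:218518426-218518675 for TGFB2, chr3:30647744-30647993 for TGFBR2 and chr5:135364334-135364583 for TGFBI. Capitals mark E boxes, CANNTG on either strand, the element that bHLH factors such as MIST1 and PTF1a bind.
TGFB2: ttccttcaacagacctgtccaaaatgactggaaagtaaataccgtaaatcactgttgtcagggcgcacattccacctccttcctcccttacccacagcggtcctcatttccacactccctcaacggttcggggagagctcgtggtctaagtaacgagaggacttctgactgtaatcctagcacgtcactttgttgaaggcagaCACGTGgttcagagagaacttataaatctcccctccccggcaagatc
TGFBR2: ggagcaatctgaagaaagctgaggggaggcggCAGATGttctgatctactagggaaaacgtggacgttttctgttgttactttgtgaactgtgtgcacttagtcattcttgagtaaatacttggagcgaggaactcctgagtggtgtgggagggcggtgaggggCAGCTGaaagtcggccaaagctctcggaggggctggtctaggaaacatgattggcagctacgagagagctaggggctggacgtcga
TGFBI: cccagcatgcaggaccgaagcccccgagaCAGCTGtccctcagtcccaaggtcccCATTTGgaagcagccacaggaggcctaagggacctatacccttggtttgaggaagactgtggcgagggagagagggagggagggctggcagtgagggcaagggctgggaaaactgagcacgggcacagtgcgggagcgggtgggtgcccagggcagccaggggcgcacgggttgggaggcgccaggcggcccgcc
The TGFB2 promoter held 1 E box, CACGTG, which starts 47 bases before the gene start and shares its first base with a CAGAC, the short SMAD-binding element. The TGFBR2 promoter held E boxes at 218 and 86 bases before the start, of the forms CATCTG on the minus strand and CAGCTG, which are known MIST1 sites. The TGFBI promoter held E boxes at 221 and 195 bases, the first of them a CAGCTG, and a TGGGAAA, the TC box that PTF1a complexes bind beside an E box, at 91 bases. Over all 10 genes, 5 promoters held a CANNTG, against 54.8% of 14254 promoters of the same length, and 2 held a CAGCTG, against 12.3%. CATCTG was in 2 of the 10 and in 8.42% of all promoters, TGGGAAA in 1 and in 6.64%, and CAGAC in 4 and in 36.3%. CAGCTG and CATCTG are forms of CANNTG and are counted in it. In the annotation used for comparison, exons of TGFB2-AS1 cover all 250 bases of the TGFB2 window. Exons of the gene itself cover all 250 bases for SMAD3, SMAD7 and SKIL and 52 for TGFBR1. For SMAD4, its own exons and those of another gene cover 201 bases, and TMEM91 covers 15 for TGFB1. Exon overlap was not counted over all promoters. These matches describe the letters of a short window, in part transcribed, and do not show binding.

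In Tet-PTF1a cells, 8 of the 10 genes passed the test after 72 h of Dox, 2 of them higher and 6 lower. TGFB2 rose most, by 0.81 on the log2 scale, while the inhibitors SMAD7 and SKIL, the target TGFBI, the carrier SMAD3 and the ligand TGFB1 fell by 0.23 to 0.55. TGFBR1 was lower and TGFBR2 higher by small amounts, and SMAD2 and SMAD4 did not pass. A gene is called where its FDR, the Benjamini-Hochberg adjusted p of edgeR's quasi-likelihood test over all genes tested, is under 0.05, and 48.2% of the 14053 genes tested in this line were called. The 23.8% called higher and 24.4% called lower stand beside 2 and 6 of the 10. The median log2 fold change was -0.18 over the 10 genes and 0.0014 over all genes tested. With libraries scaled by total count instead of TMM, 61.9% of all calls in this line were higher, against 49.4%, and still 8 of the 10 genes were called, with SMAD2 gained and TGFBR1 lost.

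**Figure D1:**
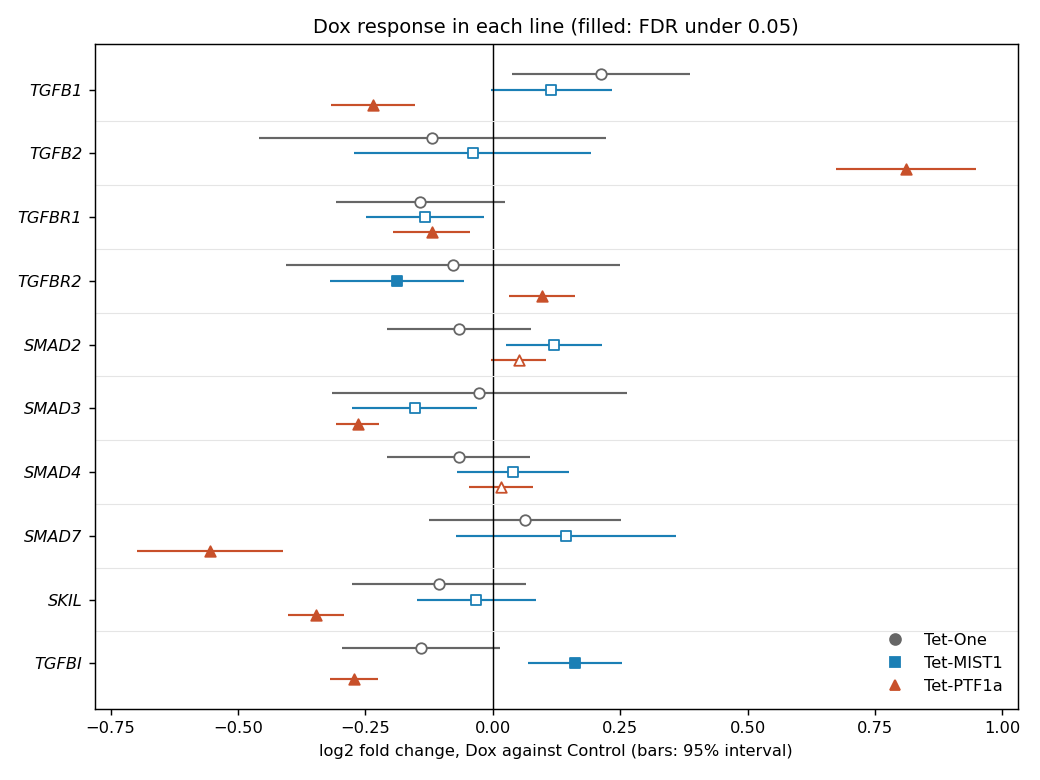
Log2 fold change of each of the 10 genes between Dox and Control (x axis), with 95% intervals, in Tet-One (circles), Tet-MIST1 (squares) and Tet-PTF1a (triangles), 4 libraries per group; filled symbols have an FDR under 0.05. The Tet-PTF1a values run from -0.55 for SMAD7 to 0.81 for TGFB2, and the intervals of TGFBR2 and SMAD3 are widest in Tet-One.

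TGFB2 encodes the TGF-beta isoform that needs the co-receptor TGFBR3 for strong binding to its receptors, and lies on chromosome 1 (hg19, 218518676 to 218617961, plus strand). In Tet-PTF1a its level was 40.5, 35.6, 32.5 and 36.1 CPM in Control replicates 1 to 4 and 66.3, 60.4, 69.1 and 62.1 CPM with Dox. Every Dox library was above every Control library, a change of 1.75-fold (log2 fold change 0.81, SE 0.06, FDR 3.1e-07). In neither of the other lines did TGFB2 pass the test. In Tet-One the Control libraries had 24.8, 23.1, 25.3 and 24.8 CPM and the Dox libraries 15.6, 24.03, 23.5 and 27.0 CPM, of which the lowest was the library that stood apart. In Tet-MIST1 TGFB2 was much lower, at 4.95, 4.33, 3.91 and 3.93 CPM without and 3.47, 4.26, 4.53 and 4.31 CPM with Dox, and the groups overlapped. The Tet-PTF1a response exceeded that of Tet-One by 0.95 (95% interval 0.58 to 1.32, FDR 0.0014) and that of Tet-MIST1 by 0.87 (0.62 to 1.13, FDR 1.1e-05) on the log2 scale. The annotation used for comparison places exons of TGFB2-AS1, on the opposite strand, over 11.8% of the TGFB2 exon bases, and of TGFB2-OT1, on the same strand, over 1371 bases, so that reads there cannot be assigned with certainty.

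TGFB1, the most widely made of the ligands, lies on chromosome 19 (41836436 to 41859838, minus strand) and went the other way. In Tet-PTF1a its level was 44.4, 42.0, 47.0 and 47.3 CPM in Control and 36.5, 38.0, 38.2 and 40.6 CPM with Dox. All Dox libraries were below all Control libraries, with a log2 fold change of -0.23 (SE 0.04, FDR 4.1e-06). In Tet-One the direction was opposite, from 27.1, 31.9, 30.4 and 32.8 CPM to 36.7, 34.6, 33.9 and 35.9 CPM. All 4 Tet-One Dox libraries were above the Control libraries, and TGFB1 was the only gene of the 10 whose groups did not overlap there, against 2.44% of all genes tested in that line. The difference of 0.21 (95% interval 0.04 to 0.39) did not pass the test over all genes (FDR 0.897, unadjusted p = 0.022). In Tet-MIST1 the levels were 42.6, 37.6, 38.5 and 39.6 CPM without and 43.2, 41.6, 40.7 and 44.7 CPM with Dox, which overlapped. The Tet-PTF1a response was lower than that of Tet-One by 0.45 (interval -0.64 to -0.26, FDR 0.0026) and lower than that of Tet-MIST1 by 0.34 (interval -0.49 to -0.19, FDR 0.00091).

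The receptors moved little. TGFBR2, the ligand-binding kinase, lies on chromosome 3 (30647994 to 30735633, plus strand), and in Tet-PTF1a it had 92.3, 83.6, 82.7 and 84.9 CPM in Control and 89.1, 91.1, 92.5 and 95.5 CPM with Dox. The highest Control library, replicate 1, lay above 2 of the Dox libraries, and the log2 fold change was 0.10 (SE 0.03, FDR 0.012). This call was lost without Control replicate 3 (FDR 0.060) or without Dox replicate 4 (FDR 0.070). TGFBR1, the kinase that phosphorylates SMAD2 and SMAD3, lies on chromosome 9 (101867371 to 101916473, plus strand) and had 82.6, 85.6, 75.3 and 81.3 CPM in Control and 76.0, 76.2, 78.8 and 69.4 CPM with Dox. These groups also overlapped, with a log2 fold change of -0.12 (SE 0.04, FDR 0.0082), and the call was lost without Dox replicate 4 (FDR 0.053). For TGFBR1 the responses of the lines were close: -0.12 in Tet-PTF1a, where it passed the test, and -0.13 in Tet-MIST1 and -0.14 in Tet-One, where it did not. The difference between the Tet-PTF1a and Tet-One responses was 0.03, with a 95% interval from -0.16 to 0.21.

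Among the signal carriers, SMAD3 changed and SMAD2 and SMAD4 did not pass. SMAD3, which binds DNA directly, lies on chromosome 15 (67358195 to 67487533, plus strand) and had the highest level per kb of the 10 genes in Tet-PTF1a. It had 603, 586, 585 and 582 CPM in Control. With Dox it had 498, 486, 500.1 and 477 CPM, below every Control library (log2 fold change -0.26, SE 0.02, FDR 1.98e-15). SMAD2 (chromosome 18, 45359466 to 45457517, minus strand) had 139, 138, 132 and 134 CPM in Control and 136, 141, 142 and 144 CPM with Dox. Its log2 fold change was 0.05 (95% interval -0.0027 to 0.10, FDR 0.112). SMAD4 (chromosome 18, 48556583 to 48611411, plus strand), the partner that both share, had 69.8 to 73.7 CPM in Control and 69.7 to 73.5 CPM with Dox, with a log2 fold change of 0.02 (interval -0.05 to 0.08, FDR 0.710). For SMAD4 the interval leaves room for a change of no more than 0.08 in either direction. The annotation places exons of another gene on the same strand, ENSG00000267699, over 9.28% of the SMAD4 exon bases. Reads there cannot be assigned with certainty. The SMAD3 response in Tet-PTF1a was not shown to differ from that of Tet-One (difference -0.24, FDR 0.294) or of Tet-MIST1 (difference -0.10, FDR 0.199). Without the Tet-One Dox library that stood apart the first of these was -0.35 (FDR 1.1e-08), and without Tet-MIST1 Dox replicate 1 the second was -0.15 (FDR 0.0039).

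Both inhibitors fell. SMAD7, which competes with SMAD2 and SMAD3 for the receptor and brings SMURF ligases to it, lies on chromosome 18 (46446223 to 46477081, minus strand). Its Tet-PTF1a levels were 11.8, 13.2, 12.1 and 12.9 CPM in Control and 7.47, 8.34, 8.45 and 9.14 CPM with Dox, which was 0.68-fold of Control (log2 fold change -0.55, SE 0.07, FDR 4.4e-09). No library of one group reached the other, on 130 to 502 reads per library. In Tet-One SMAD7 had 10.9, 11.5, 10.3 and 11.9 CPM without and 11.1, 12.6, 12.1 and 10.7 CPM with Dox. In Tet-MIST1 it had 3.93, 4.10, 3.89 and 3.43 CPM without and 4.58, 4.08, 4.61 and 3.57 CPM with Dox. The groups overlapped in both of those lines. The Tet-PTF1a response was lower than that of Tet-One by 0.63 (interval -0.86 to -0.41, FDR 0.00067) and lower than that of Tet-MIST1 by 0.69 (interval -0.95 to -0.44, FDR 0.00012).

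SKIL, which encodes the repressor SnoN, lies on chromosome 3 (170075473 to 170114637, plus strand). In Tet-PTF1a it had 200.4, 189, 184 and 187 CPM in Control and 149, 149.7, 157 and 145 CPM with Dox, again with no overlap (log2 fold change -0.35, SE 0.03, FDR 4.0e-15). In Tet-One it had 54.5 to 60.7 CPM without and 48.3 to 56.9 CPM with Dox, and in Tet-MIST1 31.2 to 32.2 CPM and 28.4 to 33.4 CPM, with overlap in both. The difference from the Tet-MIST1 response was -0.30 (FDR 0.00062) and passed, whereas that from the Tet-One response was -0.24 (FDR 0.064) and did not. That second difference passed without Tet-One Dox replicate 1 (FDR 0.00057) and without Tet-One Control replicate 3 (FDR 0.035).

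TGFBI, a secreted matrix protein named for its induction by TGF-beta, lies on chromosome 5 (135364584 to 135399507, plus strand) and moved in opposite directions in the induced lines. In Tet-PTF1a it had 208, 206, 201 and 206 CPM in Control and 169.9, 169.5, 173 and 167 CPM with Dox (log2 fold change -0.27, SE 0.02, FDR 5.2e-14). In Tet-MIST1 it had 663, 668, 658 and 643 CPM in Control and 695, 756, 745 and 726 CPM with Dox (log2 fold change 0.16, SE 0.04, FDR 0.020). Neither line had any overlap between its groups. The responses differed by -0.42 on the log2 scale (Tet-PTF1a minus Tet-MIST1, interval -0.51 to -0.33, FDR 1.8e-07). In Tet-One TGFBI had 129, 132, 121 and 119.5 CPM without and 108, 113, 112 and 121 CPM with Dox, and 1 Dox library lay within the Control range. Its log2 fold change in Tet-One was -0.14 (FDR 0.897), the same direction as in Tet-PTF1a. The Tet-PTF1a response was not shown to differ from that of Tet-One (difference -0.13, FDR 0.247). That difference passed without Tet-One Dox replicate 1 (FDR 0.020). The Tet-MIST1 response differed from that of Tet-One by 0.30 (FDR 0.065), which did not pass.

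In Tet-PTF1a, 6 of the 10 genes had Dox and Control libraries that did not overlap, TGFB2 above and TGFB1, SMAD3, SMAD7, SKIL and TGFBI below, beside 42.3% of all genes tested in that line. None of the 8 calls went beyond 1 or -1 on the log2 scale, which 3.57% of all genes tested did. These changes went together with others in the same libraries: the 6 ductal epithelial markers, all listed, summed to between 3448 and 3619 CPM in Control and 1732 and 1784 CPM with Dox. The acinar genes PRSS1 and CEL, the only 2 of 6 listed, summed to between 0.546 and 0.849 CPM and to between 3.27 and 4.32 CPM. COL3A1, the only 1 of 4 fibroblast markers listed, had 5.56 to 6.90 CPM in Control and 15.7 to 16.9 CPM with Dox. Their part in the changes of the 10 genes was not tested, and in such bulk libraries fewer cells of a type and less RNA per cell cannot be told apart.

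**Figure D2:**
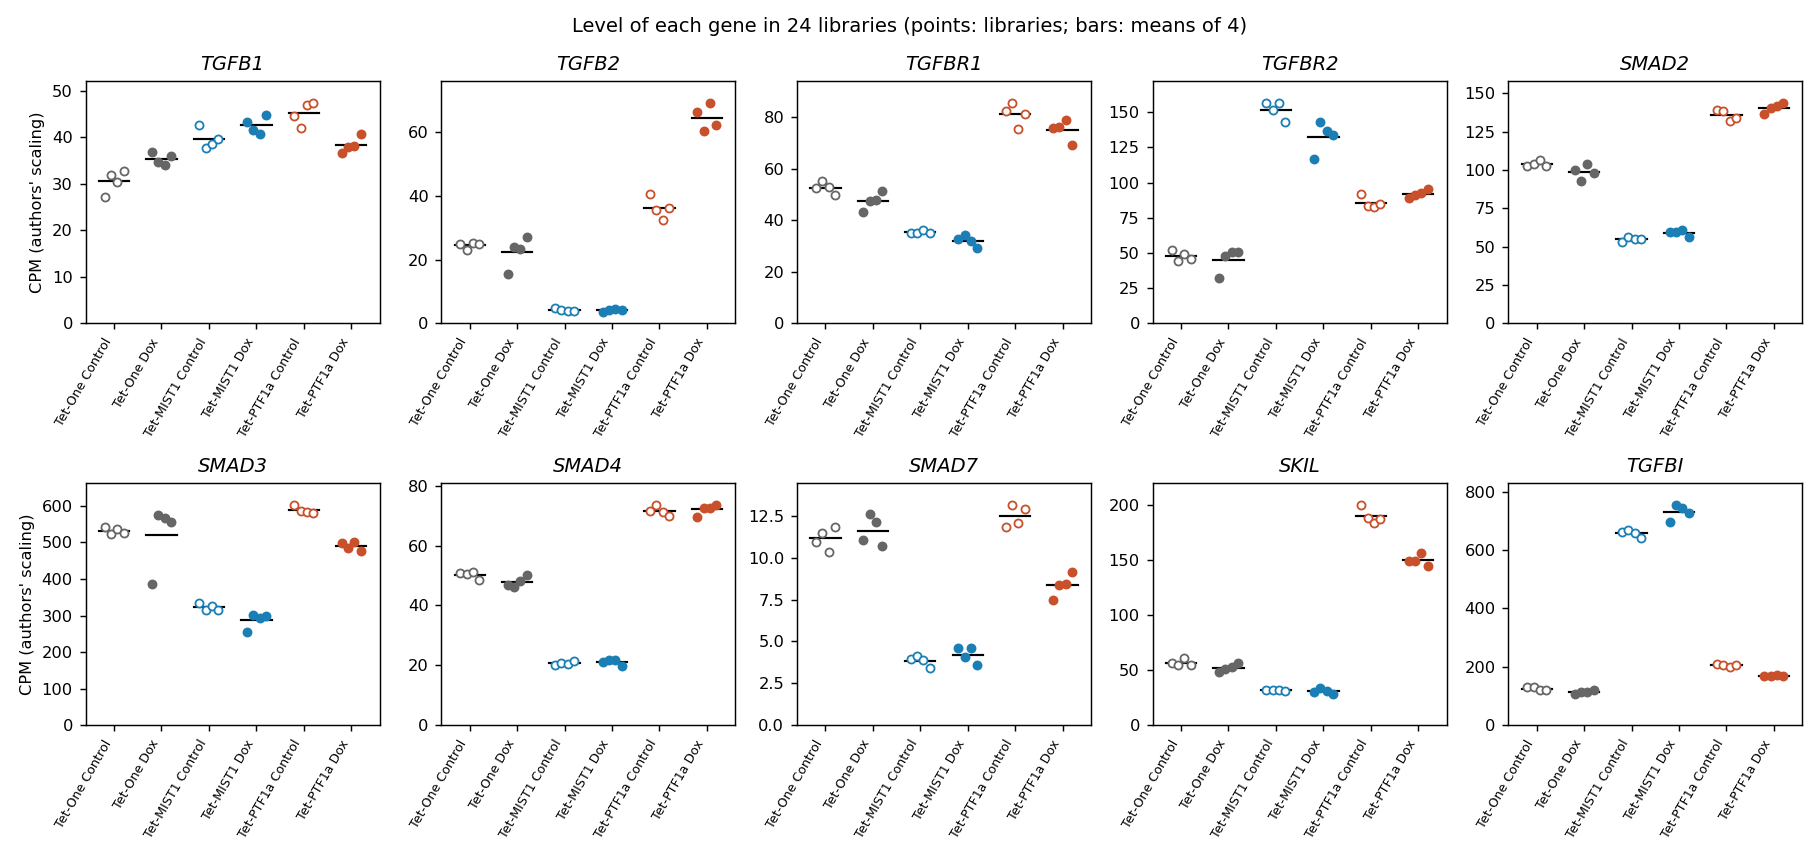
Level of each of the 10 genes in CPM as scaled by the authors (y axis from 0, its own scale for each gene) in the 24 libraries. Open points are Control and filled points Dox libraries, and each bar is the mean of 4. Tet-PTF1a Dox libraries lie apart from Control for TGFB2, SMAD7, SKIL, SMAD3, TGFB1 and TGFBI, and Tet-One Dox replicate 1, the first filled grey point, lies low for TGFB2, TGFBR2 and SMAD3.

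In Tet-MIST1, 2 of the 10 genes were called, beside 20.6% of the 13623 genes tested in that line. TGFBI was higher, as given above, among 11.9% of all genes, and TGFBR2 was lower, among 8.77%. TGFBR2 had 157, 151, 156 and 143 CPM in Control and 117, 143, 136 and 134 CPM with Dox, all below the Control libraries before rounding (log2 fold change -0.19, SE 0.06, FDR 0.045). Both calls were close to the limit. TGFBI lost its call without any single Control library or without Dox replicate 3, with an FDR of at most 0.069, and TGFBR2 lost its call without any single Control library or without Dox replicate 3 or 4, with an FDR of at most 0.128. The median log2 fold change was 0.0042 over the 10 genes and -0.0036 over all genes tested.

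A further 3 genes had libraries that did not overlap in Tet-MIST1 and did not pass the test, so that 5 of 10 did not overlap, beside 27.1% of all genes. SMAD2 had 53.2, 56.2, 55.1 and 54.8 CPM without and 59.8, 59.6, 60.8 and 56.4 CPM with Dox (log2 fold change 0.12, FDR 0.067). SMAD3 had 334, 314, 327 and 314 CPM without and 255, 302, 294 and 299 CPM with Dox (-0.15, FDR 0.071). TGFBR1 had 35.1, 35.1, 36.1 and 35.3 CPM without and 32.8, 34.2, 31.9 and 29.3 CPM with Dox (-0.13, FDR 0.093). SMAD3 passed without Dox replicate 2 (FDR 0.047), and TGFBR1 passed without Dox replicate 1 (FDR 0.044) or 2 (FDR 0.044). TGFBR2 thus was called in both induced lines with opposite signs, as TGFBI was. The TGFBR2 responses differed by 0.30 (Tet-PTF1a minus Tet-MIST1, interval 0.15 to 0.45, FDR 0.0025), a call that was lost with all 24 libraries in 1 fit (FDR 0.167).

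In Tet-One, none of the 10 genes was called by edgeR's quasi-likelihood test, and 0% of the 13428 genes tested were. Before adjustment 401 genes had a p under 0.05, TGFB1 being the only 1 of the 10, and DESeq2's Wald test also called 0 genes. The intervals of the 10 log2 fold changes ranged in width with the spread of the line, the widest being that of TGFB2, from -0.46 to 0.22. The changes of TGFB2, TGFBR2 and SMAD3 were -0.12, -0.08 and -0.03, and became 0.02, 0.05 and 0.09 once the library that stood apart was left out, none of which passed.

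Tested directly against Tet-One, 3 of the 10 responses differed in Tet-PTF1a, those of TGFB1, TGFB2 and SMAD7, beside 12.8% of 13521 genes (5.52% higher and 7.33% lower), and none differed in Tet-MIST1, beside 1.66% of 13879 genes (1.48% higher and 0.187% lower). These comparisons share the Tet-One libraries. Of all genes that differed from Tet-One in Tet-PTF1a, 42.9% were higher, and 54.1% were with libraries scaled by total count. For Tet-MIST1, SMAD2 (difference 0.18) and TGFBI (0.30, FDR 0.065) had an unadjusted p under 0.05, and DESeq2 called 1 gene, TGFBI. Without Tet-One Dox replicate 1, 7 of the 10 differed in Tet-PTF1a, beside 30.7% of 13521 genes. In Tet-MIST1 3 then differed, beside 13.9% of 13879 genes: SMAD2 (0.20, FDR 0.037), SMAD3 (-0.24, FDR 0.030) and TGFBI (0.29, FDR 0.0068). TGFBI also passed in Tet-MIST1 without Tet-One Dox replicate 4 (0.33, FDR 0.043). Between the induced lines 6 of the 10 responses differed, beside 36.4% of 13521 genes (17.8% higher and 18.6% lower): TGFB2 and TGFBR2 were higher and TGFB1, SMAD7, SKIL and TGFBI lower in Tet-PTF1a than in Tet-MIST1.

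Control levels were compared between lines on the deposited counts, scaled jointly by TMM, since the CPM values of each table were scaled separately. Tet-MIST1 was higher than Tet-One for 3 of the 10 genes and lower for 7, beside 80.2% of 13825 genes that differed (39.5% higher and 40.7% lower). Tet-PTF1a was higher than Tet-MIST1 for 8 and lower for 2, beside 86.3% of 13485 genes (42.9% higher and 43.4% lower). Tet-PTF1a was higher than Tet-One for 9 and lower for none, beside 79.7% of 13444 genes (39.5% higher and 40.1% lower). The lines thus differed in most genes, whether of the 10 or not. SMAD7 was the exception, with 10.3 to 11.9 CPM in Tet-One and 11.8 to 13.2 CPM in Tet-PTF1a (log2 difference 0.08, 95% interval -0.06 to 0.21, FDR 0.263), and it passed with libraries scaled by total count.

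TGFB2 spanned the widest range of the 10, with means of 36.1 ± 3.29 CPM in Tet-PTF1a, 24.5 ± 0.976 CPM in Tet-One and 4.28 ± 0.487 CPM in Tet-MIST1 (SD, n = 4). The Tet-MIST1 level was 0.175-fold of the Tet-One level (log2 difference -2.51, FDR 1.1e-16). TGFBI was highest in Tet-MIST1, with 658 ± 10.7 CPM in Tet-MIST1, 205 ± 2.95 CPM in Tet-PTF1a and 125 ± 5.96 CPM in Tet-One, and was 5.22-fold higher in Tet-MIST1 than in Tet-One (log2 difference 2.38, FDR 3.9e-20). TGFBR2 had the same order of lines, with 152 ± 6.17, 85.9 ± 4.37 and 48.0 ± 3.59 CPM. SKIL was highest in Tet-PTF1a, at 190.1 ± 7.10 CPM, against 56.4 ± 2.95 CPM in Tet-One and 31.7 ± 0.456 CPM in Tet-MIST1, and was 3.18-fold higher in Tet-PTF1a than in Tet-One (log2 difference 1.67, FDR 2.8e-15). TGFB1 varied least of the 10 between the Control groups, with 45.2 ± 2.50 CPM in Tet-PTF1a, 39.6 ± 2.15 CPM in Tet-MIST1 and 30.5 ± 2.50 CPM in Tet-One. Its difference of 0.12 between Tet-PTF1a and Tet-MIST1 (FDR 0.012) did not pass without Tet-PTF1a Control replicate 4 (FDR 0.053).

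TGFBR1 and the carriers shared an order, highest in Tet-PTF1a, then Tet-One, then Tet-MIST1. TGFBR1 had 81.2 ± 4.31, 52.6 ± 2.22 and 35.4 ± 0.513 CPM, and SMAD3 had 589 ± 9.68, 532 ± 9.13 and 322 ± 10.1 CPM, where the step from Tet-One to Tet-PTF1a was 0.06 on the log2 scale (FDR 0.032). That step did not pass without Tet-PTF1a Control replicate 1 (FDR 0.087) or without Tet-One Control replicate 2 (FDR 0.098) or 4 (FDR 0.091). SMAD4 had 71.6 ± 1.57, 50.2 ± 1.27 and 20.7 ± 0.663 CPM, and SMAD2 had 136 ± 3.37, 104 ± 2.10 and 54.8 ± 1.22 CPM. SMAD2, SMAD4 and SMAD7 all lie on chromosome 18. In Tet-MIST1 their Control levels were lower than in Tet-One by 0.93, 1.29 and 1.53 on the log2 scale, and the median of the 190 chromosome 18 genes tested was -0.31, the 3rd lowest of 23 chromosomes, with 65.8% of them lower. Between Tet-PTF1a and Tet-MIST1 the chromosome 18 median was 0.60 over 184 genes, the highest of the 23, and the 3 genes differed by 1.23, 1.71 and 1.60. Between Tet-PTF1a and Tet-One the chromosome 18 median was 0.23 over 184 genes. There SMAD2 and SMAD4 differed by 0.31 and 0.43, while SMAD7, at 0.08 (FDR 0.263), lay below that median. The part of the chromosome in the difference of these genes was not tested.

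**Figure D3:**
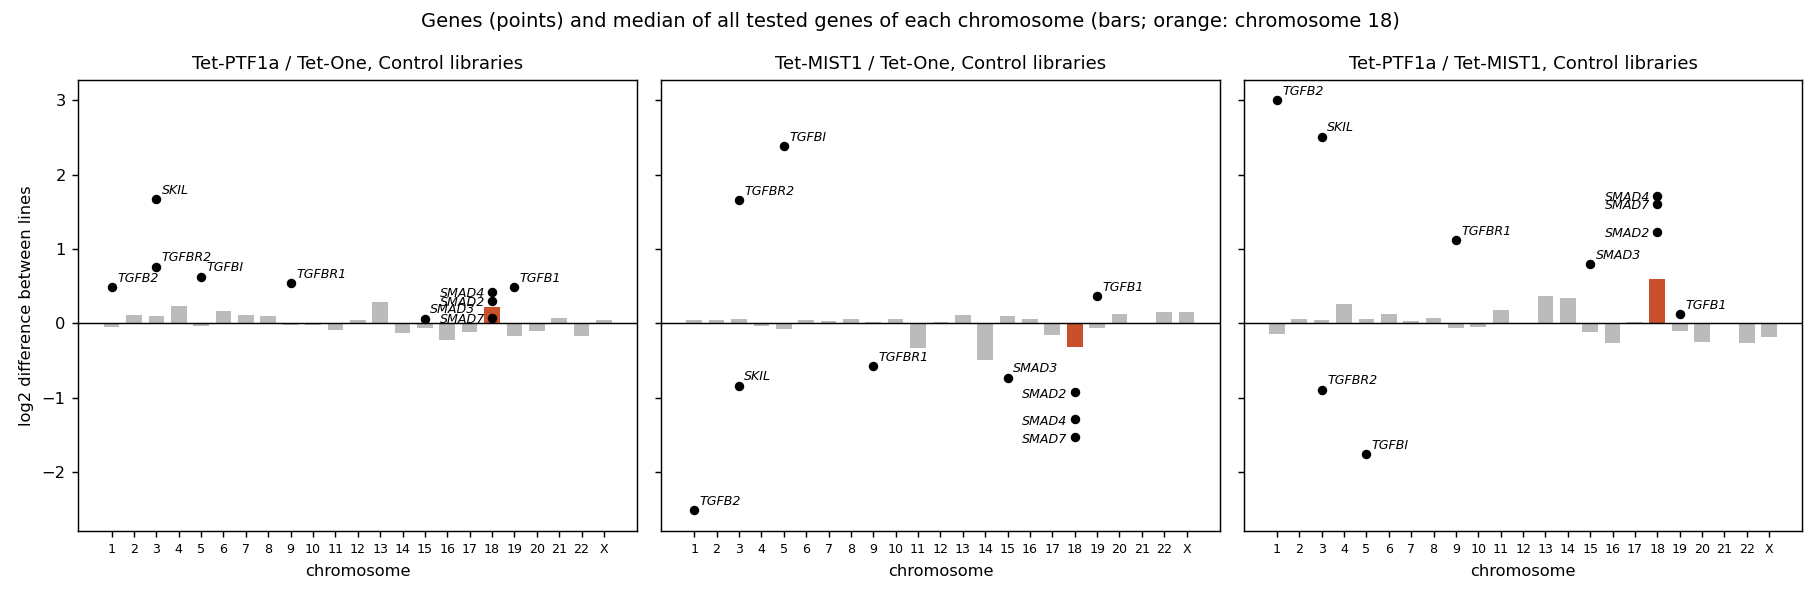
Log2 difference in Control libraries between each pair of lines (y axis) for the 10 genes (points, at their chromosome) and the median of all tested genes of each chromosome (bars, chromosome 18 in orange). SMAD2, SMAD4 and SMAD7 lie beyond the chromosome 18 median in both comparisons with Tet-MIST1, where that median is -0.31 against Tet-One and 0.60 in Tet-PTF1a against Tet-MIST1. In Tet-PTF1a against Tet-One the median is 0.23, and SMAD7 lies below it.

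Levels of different genes can be compared only per length, here as CPM per kb of listed exons. In Tet-One Control the order was SMAD3 (80.4), TGFBI (44.7), TGFB1 (11.8), TGFBR2 (10.2), SMAD2 (9.63), TGFBR1 (8.06), SKIL (7.75), SMAD4 (5.72), TGFB2 (4.12) and SMAD7 (3.24 CPM per kb). TGFBR2 and SMAD2 in this order lay within their spread of each other (SDs of 0.762 and 0.195), as did TGFBR1 and SKIL (SDs of 0.341 and 0.405). In Tet-MIST1 Control TGFBI led with 235 CPM per kb and TGFB2 was last with 0.719 CPM per kb. In Tet-PTF1a TGFB2 moved from 6.07 ± 0.553 to 10.8 ± 0.666 CPM per kb with Dox, the 9th and the 8th of the 10 genes, and TGFB1 from 17.5 ± 0.969 to 14.8 ± 0.649 CPM per kb, the 5th in both. The TGFB2 level thus came nearer to that of TGFB1 and stayed below it.

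The gene whose pattern over the 24 libraries was most like that of TGFB2 was CDK8, a kinase of the Mediator complex (Pearson r = 0.997 of log2 CPM over 12976 genes). ARHGAP5, SOX9, PPP4R3A and ARHGEF26 followed with r from 0.990 to 0.992. For TGFBR2, the called gene with the largest change in Tet-MIST1, the most similar were IDS (0.997), SORL1, TMEM2, PDS5B and POLA1 (0.988 at the lowest). The libraries of each line cluster together, so these values mostly follow the 3 line levels and are given as a description.

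Of 60 further genes of the pathway on a list by role, 49 were listed in at least 1 table. In Tet-PTF1a all 49 were tested and 37 were called (75.5%), 14 higher and 23 lower, with a median log2 fold change of -0.08. Of all genes tested there 48.2% were called, 23.8% higher and 24.4% lower. In Tet-MIST1 11 of 48 were called (22.9%), 5 higher and 6 lower, with a median of -0.02, beside 20.6% of all genes (11.9% higher and 8.77% lower). In Tet-One edgeR called 0 of 48, DESeq2 also called 0, and 1 had an unadjusted p under 0.05. A call beyond 1 or -1 on the log2 scale was made for 5 of the 49 genes tested in Tet-PTF1a, beside 3.57% of all genes tested, and for 0 of the 48 in Tet-MIST1, beside 0.404%.

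Among the other ligands and latency proteins in Tet-PTF1a, 2 of 8 tested rose and 4 fell, beside 23.8% of all genes called higher and 24.4% lower. TGFB3, the ligand isoform beside TGFB1 and TGFB2, rose from 7.42 ± 0.785 to 24.5 ± 0.624 CPM (log2 fold change 1.74, FDR 7.7e-29). GDF11, a related ligand of activin receptors, rose from 13.7 ± 0.391 to 19.2 ± 0.698 CPM (0.49, FDR 1.8e-10), and INHBB, the activin B subunit, fell from 42.7 ± 2.91 to 14.1 ± 0.728 CPM (-1.60, FDR 3.7e-30). All 3 activators of latent TGF-beta that were tested were called, beside 48.2% of all genes. THBS1, the matrix protein thrombospondin 1 that can release active TGF-beta from its latent complex, had the largest change on the list, from 6.21 ± 0.491 to 37.7 ± 1.96 CPM (log2 fold change 2.59, FDR 4.6e-37), while the 2 integrin subunits, ITGAV and ITGB8, fell.

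Of 5 other receptors and co-receptors tested in Tet-PTF1a, 1 rose and 3 fell, and of 16 modulators 6 rose and 6 fell. These counts stand beside 23.8% of all genes called higher and 24.4% called lower. SMURF2, a ubiquitin ligase that works with SMAD7 on the receptor, rose from 44.2 ± 2.90 to 59.7 ± 2.01 CPM (log2 fold change 0.43, FDR 1.0e-12). PMEPA1, a target that also restrains the pathway by holding SMAD2 and SMAD3, fell from 120.0 ± 1.76 to 57.7 ± 0.759 CPM (-1.05, FDR 1.9e-33). BAMBI, a pseudoreceptor without a kinase, fell from 0.900 ± 0.184 to 0.465 ± 0.0600 CPM (-0.86, FDR 0.0021), a level of few reads.

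Of 16 targets tested in Tet-PTF1a, 4 rose and 7 fell, beside 23.8% of all genes called higher and 24.4% called lower. COL1A1, a chain of type I collagen, fell from 153 ± 3.26 to 64.5 ± 0.994 CPM (log2 fold change -1.25, FDR 3.0e-37). ACTA2, smooth muscle actin, fell from 1.08 ± 0.183 to 0.612 ± 0.258 CPM (-0.78, FDR 0.0041), also a level of few reads. With each library left out this change ranged from -0.90 to -0.55, with an FDR of at most 0.042. KLF10, an early target that represses SMAD7, rose from 110.0 ± 1.65 to 143 ± 0.749 CPM (0.38, FDR 9.6e-18), and BHLHE40, a bHLH repressor, from 146 ± 5.59 to 176 ± 3.18 CPM (0.27, FDR 2.0e-12).

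In Tet-MIST1 the ligands GDF11, TGFB3 and INHBB rose, GDF11 from 14.2 ± 1.05 to 21.3 ± 0.512 CPM (log2 fold change 0.59, FDR 5.5e-05), TGFB3 by 0.38 (FDR 0.0076) and INHBB by 0.21 (FDR 0.028). JUNB, an early response gene, rose by 0.35 (FDR 0.0040). ITGB8 fell from 19.7 ± 0.919 to 15.5 ± 1.28 CPM (-0.34, FDR 0.0046), LTBP2, a latent TGF-beta binding protein, by 0.33 (FDR 0.026), and the ligases SMURF2 and SMURF1 by 0.30 (FDR 0.0051) and 0.29 (FDR 0.022). TGFB1I1, the focal adhesion protein Hic-5, fell by 0.23 (FDR 0.023). The INHBB call was lost without Control replicate 1, 2 or 4, the LTBP2 call without Control replicate 1 or 3 or Dox replicate 3, the SMURF1 call without Control replicate 1 or 3, and the TGFB1I1 call without Control replicate 1 or Dox replicate 3. These 4 calls were also lost with the replicate block (FDR 0.079, 0.062, 0.050 and 0.062), and those of JUNB, LTBP2 and SMURF1 with all 24 libraries in 1 fit (FDR 0.095, 0.233 and 0.148).

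Tested against the response of Tet-One by edgeR's interaction test, TGFB3 alone of the 48 pathway genes differed in Tet-MIST1 (difference 0.57, FDR 0.029). Of all 13879 genes tested 1.66% differed. Before adjustment 5 of the 48 had a p under 0.05, beside 1580 of the 13879. JUNB had a log2 fold change of 0.34 in Tet-One, which did not pass the test, and its difference was -0.0016 (interval -0.43 to 0.43, FDR 0.9996). For INHBB the Tet-One value was 0.17 and the difference 0.04 (FDR 0.957), and for SMURF2 these were -0.20 and -0.11 (FDR 0.896). GDF11 had 0.02 in Tet-One and a difference of 0.56 (FDR 0.053). The differences of ITGB8, LTBP2, SMURF1 and TGFB1I1 were -0.32 (FDR 0.356), -0.28 (FDR 0.871), -0.08 (FDR 0.970) and -0.28 (FDR 0.195). INHBB and SMURF2 were called with opposite signs in the induced lines. Between Tet-PTF1a and Tet-MIST1 their responses differed by -1.80 (FDR 9.9e-13) and 0.75 (FDR 1.25e-07) on the log2 scale.

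**Figure D4:**
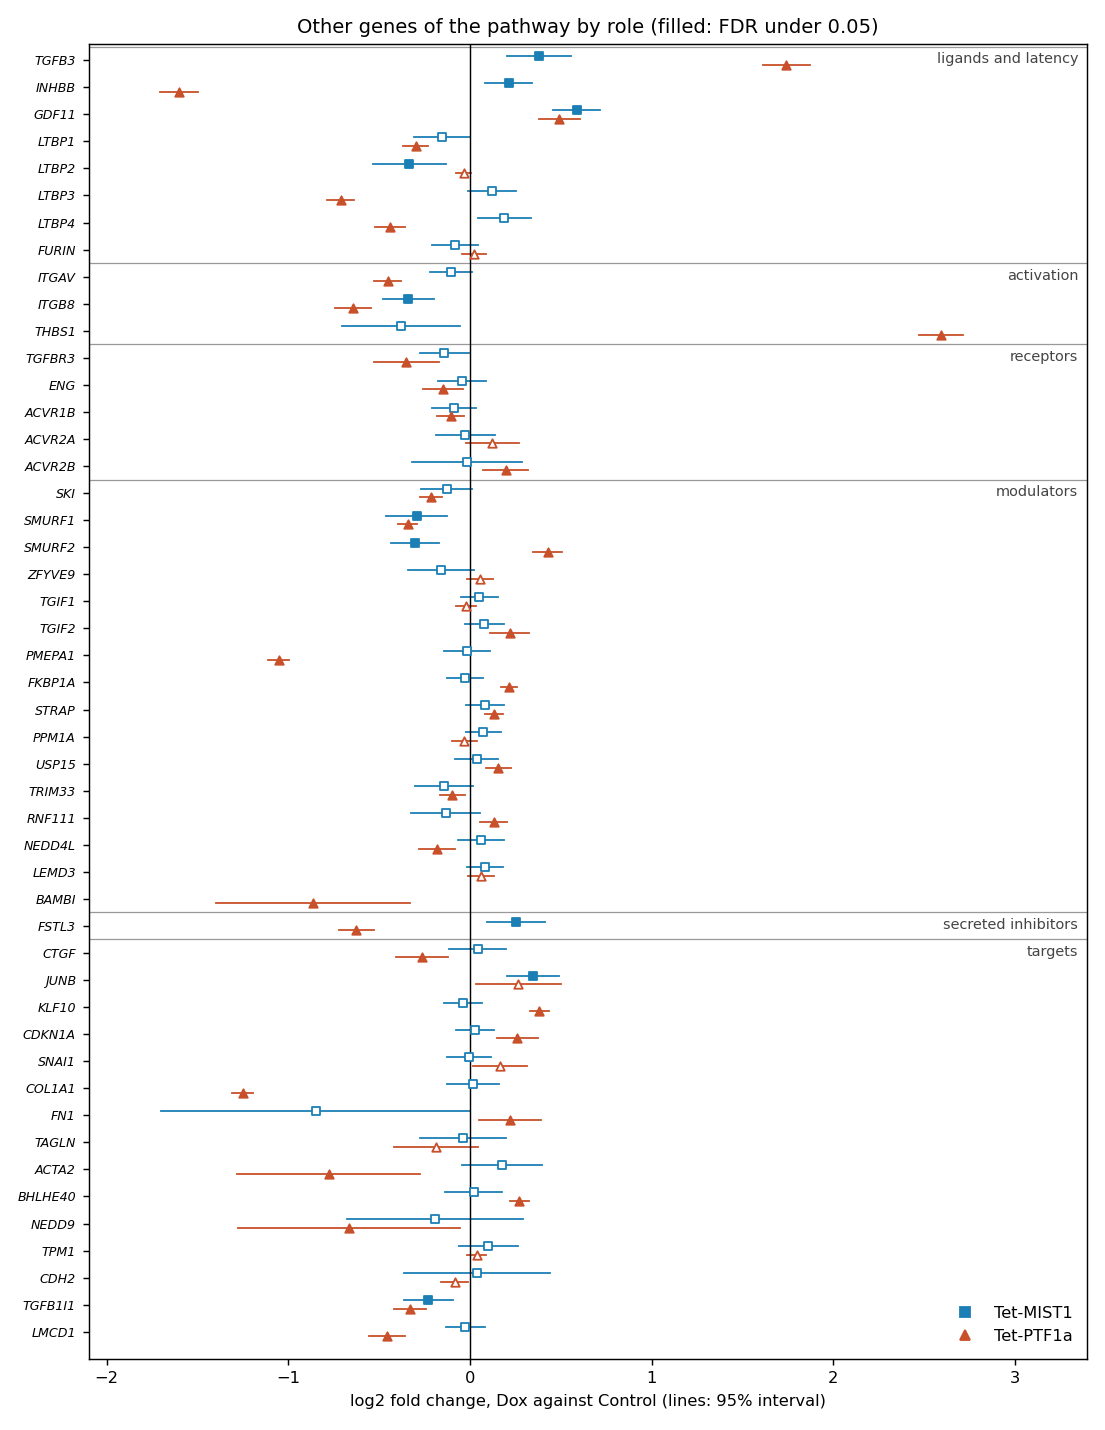
Log2 fold change between Dox and Control (x axis, lines are 95% intervals) of 48 further pathway genes, grouped by role, in Tet-MIST1 (squares) and Tet-PTF1a (triangles), 4 libraries per group; filled symbols have an FDR under 0.05. THBS1 (2.59) and TGFB3 (1.74) lie farthest to the right and INHBB (-1.60) and COL1A1 (-1.25) farthest to the left, all in Tet-PTF1a.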

How the data were processed

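Polyadenylated RNA of 24 Panc-1 libraries, described by the study as biological replicates, was sequenced as paired-end reads and aligned by the authors to hg19. The submitters' processing notes name TopHat, HTSeq, DESeq and edgeR. The annotation and the use of strand in counting are not given in the sources used here. The deposited tables hold raw counts per gene and a signal in CPM, counts scaled to library size, as set by the authors, so that columns sum to between 963081 and 1097020, and the authors kept genes above 0.5 CPM in at least 4 libraries. The deposited log2 fold changes, p-values and FDR of the authors' own comparisons were not used. The deposited exon length gave CPM per kb.

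Counts were tested with edgeR 4.0.16 in R 4.3.3 (TMM, robust quasi-likelihood test, prior count 2), with genes above 0.5 CPM in at least 4 libraries of the fit and Benjamini-Hochberg adjustment over all genes tested. Dox was compared with Control within a line over 8 libraries, the responses of 2 lines by an interaction term over 16, and the Control groups of 2 lines over 8. The fit was tested on simulated data. CPM values are printed as deposited, and fold changes come from the fit.

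The 10 genes, the pathway list, the marker lists and the tests were chosen with earlier results of these data known. Named pathway genes were the up to 6 called genes with the largest change in each direction and induced line whose libraries did not overlap; ITGAV was added after its value was seen, and 1 gene that the rule names is not reported here. For likeness, the gene of the 10 with the largest change in each induced line was set against all genes with a mean above 1 CPM. Markers are given as sums.

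Promoters were read from the GRCh37 genome at the deposited gene starts, for 14254 genes; 155 genes on several chromosomes or strands were left out. Gene names that had become dates, 20 per line, stayed as they were.

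The labels do not say that replicate numbers mark shared cultures, and deviations of same-numbered Control and Dox libraries correlated at -0.41 to 0.36. No pair of replicates agreed within sampling noise (over 36 pairs, chi-square divided by its degrees of freedom ran from 1.39 to 238.0). Alternatives were DESeq2 1.42.0, other scalings, filters, prior count, a replicate block, all 24 libraries in 1 fit, a limit on the fold change, and each library left out in turn.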

Additional observations from a re-analysis of the deposited data

Results flagged for a closer look

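In 6 of 100 groups of 4 libraries, 1 library lay so far from the rest that its gap divided by the range of the group passed Dixon's 95% critical value for 4; chance gives about 1 in 20 groups. In Tet-One Dox, replicate 1 was low for TGFBR2 (32.1 CPM against 48.0 to 50.8, gap over range 0.851) and for SMAD3 (386 CPM against 557 to 575, 0.906). In Tet-MIST1 Dox, replicate 1 was low for SMAD3 (255 CPM against 294 to 302, 0.833). TGFB1I1 was high in Tet-MIST1 Control replicate 1 (44.6 CPM against 40.0 to 40.3, 0.935) and in Tet-MIST1 Dox replicate 4 (38.7 CPM against 33.4 to 34.1, 0.872). TGFB3 was high in Tet-MIST1 Control replicate 1 (8.20 CPM against 7.09 to 7.26, 0.842).

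Responses to Dox were set against each other between lines by edgeR's interaction test. Against Tet-One, the Tet-PTF1a response differed for 3 of the 10 genes, beside 12.8% of all genes tested. The differences on the log2 scale were -0.45 for TGFB1, 0.95 for TGFB2 and -0.63 for SMAD7. Against Tet-MIST1 the Tet-PTF1a response differed for 6 of the 10, beside 36.4% of all genes tested. These differences were -0.34 for TGFB1, 0.87 for TGFB2, 0.30 for TGFBR2, -0.69 for SMAD7, -0.30 for SKIL and -0.42 for TGFBI.

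Among the named pathway genes, the Tet-PTF1a response was higher than that of Tet-One by 1.92 for TGFB3, 0.47 for GDF11, 2.67 for THBS1, 0.63 for SMURF2, 0.44 for KLF10 and 0.47 for BHLHE40. It differed from that of Tet-One by -1.77 for INHBB, -0.61 for ITGB8, -1.10 for PMEPA1, -1.18 for COL1A1, -1.35 for ACTA2 and -0.38 for TGFB1I1. Compared with Tet-MIST1 it was higher by 1.37 for TGFB3, 0.31 for LTBP2, 2.98 for THBS1, 0.75 for SMURF2, 0.43 for KLF10 and 0.26 for BHLHE40. In that comparison the differences were -1.80 for INHBB, -0.29 for ITGB8, -1.03 for PMEPA1, -1.25 for COL1A1 and -0.95 for ACTA2. The Tet-MIST1 response was higher than that of Tet-One by 0.57 for TGFB3. The ACTA2 differences rest on few reads in Tet-PTF1a. The same Control and Dox libraries enter several of these comparisons.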

How the results depend on the processing

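In Tet-PTF1a, TGFB1, TGFB2, SMAD3, SMAD7, SKIL and TGFBI kept their call and direction under every alternative tried other than the fold limit (calls also required to lie beyond 1 or -1 on the log2 scale). The count of 8 of the 10 genes was 6 to 8 when each library was left out in turn, and that of 37 pathway genes 34 to 37. With the fold limit these were 0 and 5. Of all genes tested, 43.9% to 46.1% were called with each library left out and 3.57% with the fold limit. TGFBR1 and TGFBR2 lost their calls with all 24 libraries in 1 fit (FDR 0.158 and 0.572).

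In Tet-MIST1, the count of 2 of the 10 genes was 4 by DESeq2, 1 with libraries scaled by total count, 0 with the fold limit and 0 to 4 with each library left out. That of 11 pathway genes was 7 with all 24 libraries in 1 fit, 0 with the fold limit and 5 to 13 with each library left out. With the replicate block these counts were 0 and 6, with an FDR of 0.087 for TGFBI and 0.093 for TGFBR2. Of all genes tested in this line, 23.6% were called by DESeq2, 20% with libraries scaled by total count and 0.404% with the fold limit. The share was 12.6% with all 24 libraries in 1 fit, 10.7% with the block and 10.6% to 27.7% with each library left out. Same-numbered libraries correlated at -0.41 to 0.36, and a library correlated best with its own number in 1 of 12 cases. These are correlations of deviations from a mean of 4 libraries, so they cannot decide whether same-numbered libraries shared a culture.

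Of the 10 genes, 3 to 7 differed between the Tet-PTF1a and Tet-One responses with each library left out, 0 to 3 between Tet-MIST1 and Tet-One (1 by DESeq2 and 1 with all 24 libraries in 1 fit), and 6 to 7 between Tet-PTF1a and Tet-MIST1 (5 with all 24 libraries in 1 fit, where TGFBR2 was lost). Over all genes, leaving out Tet-One Dox replicate 1 moved the calls from 1737 to 4151 and from 231 to 1930 in the first and second of these, and from 0 to 1 in Tet-One. The 231 were 499 by DESeq2, 352 by the likelihood ratio test, 83 with the block, 530 with all 24 libraries and 144 or 145 without Tet-MIST1 Control replicate 1, 3 or 4. The 2812 calls in Tet-MIST1 were 1463 with the block, 1705 with all 24 libraries and 1460, 1771 and 1436 without Control replicate 1, 2 or 3. With all 24 libraries, the 6775 calls in Tet-PTF1a were 3131 and the 4920 between the induced lines 2716. The cause was not tested.

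Changes of sign were seen in values that had not passed the test. The SMAD4 difference between the Tet-PTF1a and Tet-MIST1 responses was 0.017 with libraries scaled by total count. With single libraries left out, the Tet-One change ranged from -0.218 to 0.0176 for TGFB2, from -0.136 to 0.0517 for TGFBR2 and from -0.0788 to 0.0890 for SMAD3. The Tet-MIST1 change ranged from -0.0830 to 0.0378 for TGFB2 and from -0.0684 to 0.00589 for SKIL. The TGFBR1 difference ranged from -0.0105 to 0.0685 between Tet-PTF1a and Tet-One, from -0.0273 to 0.0431 between Tet-MIST1 and Tet-One and from -0.0148 to 0.0571 between the induced lines. The TGFB2 difference between Tet-MIST1 and Tet-One ranged from -0.0523 to 0.174. In all, 2088 of the recomputed log2 values kept their direction and side of the threshold, 46 fell below it, 22 passed it and 19 changed sign. SMAD7 and TGFB2 in Tet-MIST1 rest on under 200 reads a library, which limits the changes that can be seen there.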
